A study of Mus musculus with 40 samples.

Results

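The transcripts described here come from 10 mouse genes of interleukin-6 (IL-6) family signaling and its STAT3 response. Il6 and Lif encode cytokines, Il6ra and Osmr encode receptor chains, Stat3 encodes the transcription factor, Socs3 encodes a feedback inhibitor, and Nfil3, Bcl3, Cebpd and Slc39a14 are response genes. They were chosen by name out of 37310 genes in a table of RNA sequencing counts, at a time when their levels across histological grades in these libraries were already known. Those levels are therefore given as a description, without a test, while the sample type, the strain and a separate set of 15 libraries took no part in the choice. The filter on low expression passed 15630 genes, and 9 of the 10 were among them. Il6 was not, because it had few or no reads in most libraries.

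The animals were SWR/J and A/J mice, painted on the skin with N-nitroso-tris-chloroethylurea (NTCU), a carcinogen that gives rise to squamous lesions in the airways, or with its acetone vehicle. The strain labels read SWJ, which was taken as the SWR/J that the protocols name. RNA came from whole lung or from tissue cut out under the microscope by laser capture microdissection (LCM). Of 40 libraries, 25 had passed quality control: 7 of normal histology from vehicle-treated mice (4 SWR/J, 3 A/J), 5 of mild dysplasia (all SWR/J, 15 µmol NTCU in total), 9 of moderate to severe dysplasia (6 SWR/J at 25 or 30 µmol, 3 A/J at 14 µmol), 2 of severe dysplasia (SWR/J, 50 µmol), and 2 of A/J mice at 20 µmol, which were 1 LCM squamous cell carcinoma (SCC) and 1 whole lung carcinoma in situ (CIS). The last 3 grades, 13 libraries, are called high-grade. NTCU was given at 40 or 80 mmol/L over 14 to 25 weeks. Dose differed between the strains at the same grade, so that strain and dose cannot be told apart in the lesions. Within each strain the total dose rose with grade, from vehicle alone in the normal libraries, so grade and dose cannot be told apart either. The labels do not say which libraries share an animal, and p-values measure only the spread between these libraries.

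IL-6, leukemia inhibitory factor (LIF) and oncostatin M bind a receptor chain of their own and the shared chain gp130, encoded by Il6st. Janus kinases bound to gp130 then phosphorylate STAT3, which enters the nucleus and activates its targets. One of these targets, SOCS3, binds gp130 and the kinases and dampens the signal, and in the liver and in barrier epithelia the same pathway drives the acute phase response.

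Because STAT3 binds DNA at paired TTC and GAA triplets 3 bases apart, the windows around the gene starts in RefSeq (GRCm38.p6, 250 bases before to 50 after the start) were searched for TTCNNNGAA, which reads the same on both strands. Windows were found for 8 of the 10 genes, and 1 of these held the letters, that of Socs3. Among all 32851 windows, 8.3% held at least 1 match. The Socs3 window is printed because it is the only one with a match, with the 9 matching bases in capitals. It lies at chr11:117969317-117969616 on the minus strand, and the match starts 154 bases before the gene start.
Socs3 promoter: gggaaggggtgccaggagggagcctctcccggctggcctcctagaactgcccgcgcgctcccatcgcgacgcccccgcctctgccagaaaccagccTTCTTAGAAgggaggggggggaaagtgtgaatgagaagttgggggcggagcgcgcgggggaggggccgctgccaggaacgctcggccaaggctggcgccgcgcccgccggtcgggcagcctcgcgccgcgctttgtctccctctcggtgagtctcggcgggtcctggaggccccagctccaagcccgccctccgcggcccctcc
The windows of Il6, Lif, Il6ra, Osmr, Stat3, Nfil3 and Bcl3 held no match, which says only that these letters are not within 300 bases at 1 annotated start.

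The 25 libraries held 2667387 to 16534728 expected counts each (median 9075416). RNA integrity, as the median transcript integrity number (TIN) of the labels, had a median of 58.7 in normal, 57.8 in mild and 45.5 in high-grade libraries, and of 61.1 in A/J against 45.1 in SWR/J. Grade and description labels were compared for the normal and mild dysplasia libraries only, not for the high-grade ones. They name different histologies in 2 libraries, the A/J LCM normal replicate 10 and the SWR/J LCM mild replicate 5. LCM libraries were higher than whole lung for 3 of 5 ciliated, 2 of 4 club and 1 of 5 airway basal cell markers, and lower for all 5 endothelial and 2 of 5 alveolar type 2 markers. Of all genes, 14.6% were called between the sample types in either direction. T cell marker transcripts were abundant in normal libraries, where their summed level (log2 of summed CPM + 1, with CPM the counts scaled to equal library size) ran from 6.49 to 11.60, against 3.74 to 7.09 in mild dysplasia and 2.44 and 3.09 in the SCC and CIS libraries. All 5 T cell markers were called lower in mild dysplasia against normal (median log2 fold change −5.33, all genes −0.02), where 12.4% of all genes were called. In bulk RNA, fewer cells of a type and less RNA per cell cannot be told apart.

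Across grades, 8 of the 9 genes that passed the filter were high in the SCC and CIS libraries, and Il6ra was not. Levels are log2 CPM with TMM-scaled library sizes and a prior count of 2, so a step of 1 is a 2-fold difference. In both the SCC and the CIS library these 8 genes (Lif, Osmr, Stat3, Socs3, Nfil3, Bcl3, Cebpd and Slc39a14) lay above every normal library, which 9.52% of all genes tested did. The genes were chosen with this contrast in view, so nothing is read from that count. Every mild library was above every normal library for 0 of the 9, and for 0.486% of all genes. No gene of the 15630 (0.0%) had every high-grade library above every normal library.

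**Figure D1:**
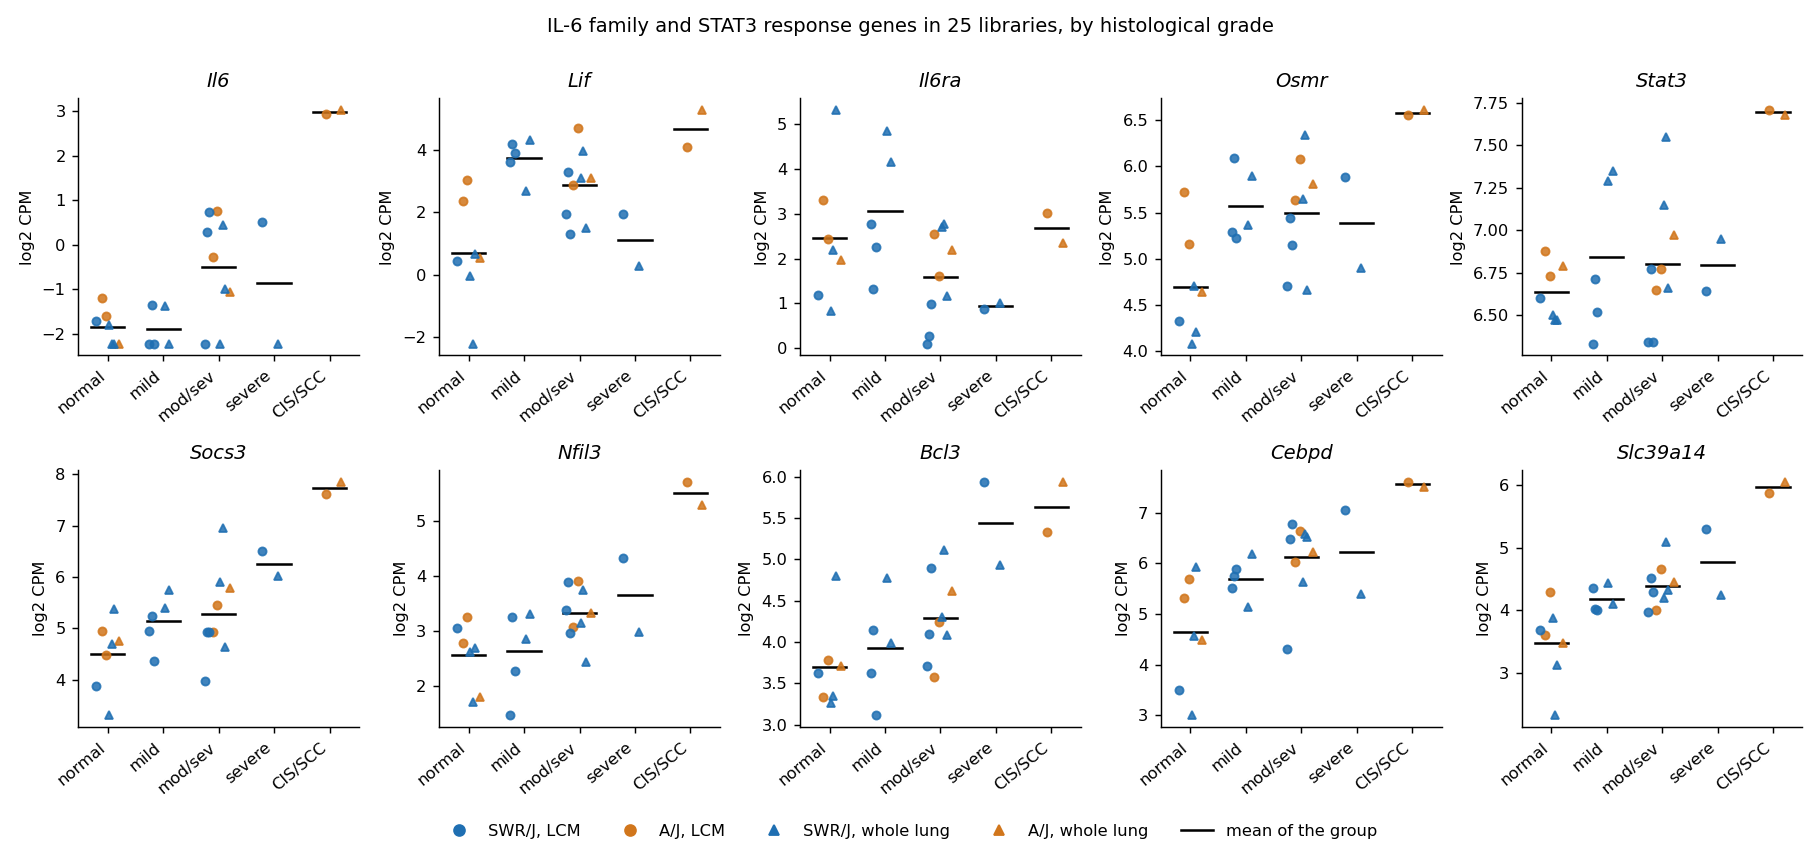
Log2 CPM (vertical axis) of the 10 genes in the 25 libraries that passed quality control, by grade (horizontal axis: normal, mild, moderate to severe (mod/sev), severe, CIS/SCC). Circles are LCM, triangles whole lung, blue SWR/J, orange A/J, and bars group means. The A/J SCC and CIS libraries stand above every normal library in each panel except Il6ra, while the mild dysplasia libraries overlap the normal ones in every panel, least for Lif, where 4 of 5 are above the highest normal library.

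Among the cytokines, Il6 encodes the ligand that names the family. Its transcript was barely detected outside the carcinomas: the 7 normal libraries held 0 to 3 expected counts, the 5 mild libraries 0 to 3, and the 9 moderate to severe libraries 0 to 12. No read was assigned in 9 of the 25 libraries, where a count of 0 allows up to 3 counts, or 0.271 to 1.12 CPM, for counting error only. The SCC library had 104 counts (7.40 CPM) and the CIS library 75 (7.95 CPM). At moderate to severe dysplasia, 7 of 9 libraries were above the highest normal library on the log2 scale (highest normal −1.19). Those values rested on 1 to 12 counts each.

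Lif, whose product acts through LIFR and gp130, ranged widely. In the normal libraries its level ran from −2.22, the value of a library without a read, over a median of 0.53 to 3.04. The 5 mild libraries were at 2.69, 3.62, 3.90, 4.19 and 4.30, and 4 of them exceeded every normal library. The highest normal libraries were the A/J LCM ones (2.36 and 3.04), and none of the 4 SWR/J ones passed 0.67. A/J LCM normal replicate 10 and SWR/J LCM mild replicate 5 are the 2 normal or mild libraries whose grade and description labels differ. Moderate to severe dysplasia had 1.31, 3.08 and 4.70 as lowest, median and highest, severe dysplasia 0.27 and 1.94, and the SCC and CIS libraries 4.08 and 5.28. With strain, sample type and median TIN in the model, the fitted difference from normal was 3.66 ± 0.68 (log2 fold change ± SE) for mild dysplasia and 2.72 ± 0.60 for high-grade lesions. The mild and the high-grade comparisons share the 7 normal libraries.

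Osmr encodes the oncostatin M receptor chain. Normal libraries had a lowest, median and highest level of 4.08, 4.64 and 5.72. Mild dysplasia lay at 5.22, 5.29, 5.36, 5.90 and 6.09, above the normal mean in every library but above the highest normal library in 2 of 5. The SCC and CIS libraries were at 6.55 and 6.61. Within SWR/J alone, every mild library was above every normal library for Osmr, Lif and Slc39a14, and 5.13% of all genes did the same. The fitted differences from normal were 1.24 ± 0.32 for mild and 1.03 ± 0.25 for high-grade.

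Il6ra, the chain that binds IL-6 itself, was the exception. Its normal libraries spread from 0.83 to 5.32 with a median of 2.19, and the SCC and CIS libraries were at 3.03 and 2.35, inside that range. Moderate to severe dysplasia had a median of 1.62, and none of the 13 high-grade libraries exceeded the highest normal one. The fitted difference for high-grade was −0.51 ± 0.49, and 0.01 when the normal SWR/J whole lung replicate 8 was left out. The highest normal value (5.32) was that of this library, which also carried the highest B cell marker level (10.69) of the 25.

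Stat3 was abundant and varied little. Normal libraries ran from 6.47 to 6.88, and the SCC and CIS libraries were at 7.71 and 7.68. The mean difference of high-grade from normal was 0.60 in whole lung (6 against 4 libraries) and 0.01 in LCM (7 against 3). These did not differ past the threshold between the sample types, as the interaction test given with those of the other genes shows.

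Socs3, the feedback inhibitor, had the steepest rise per step of grade after Lif, at 0.70 ± 0.11 log2 units against 0.87 ± 0.30. The 7 normal libraries were between 3.30 and 5.38 (median 4.69), mild dysplasia between 4.37 and 5.74, and moderate to severe dysplasia between 3.98 and 6.95. Severe dysplasia was at 6.01 and 6.51, and the SCC and CIS libraries at 7.62 and 7.86. Mild and moderate to severe dysplasia overlapped the normal libraries, and the 4 libraries of the highest grades did not.

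Nfil3 encodes a repressor of the basic leucine zipper class that also acts in the clock and in lymphoid cells. Its mild dysplasia libraries (1.46, 2.27, 2.85, 3.25 and 3.30) straddled the normal range of 1.70 to 3.25. Moderate to severe dysplasia had 2.43, 3.32 and 3.91 as lowest, median and highest. The SCC and CIS libraries stood at 5.71 and 5.28, above the next library, SWR/J LCM severe dysplasia, at 4.32.

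Slc39a14 encodes a zinc and iron importer, induced in the acute phase response. Every one of the 13 high-grade libraries was above the normal mean of 3.48, and 9 were above the highest normal library (4.29). In SWR/J alone all 8 high-grade libraries (lowest 3.97) exceeded all 4 normal libraries (highest 3.88), as did 0.307% of all genes. The SCC and CIS libraries had 5.88 and 6.06.

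Bcl3, an atypical IkB protein that acts in the nucleus, and Cebpd, a C/EBP transcription factor of the acute phase, completed the set. Bcl3 ran from 3.26 to 4.80 in normal libraries and reached 4.93 and 5.94 in severe dysplasia and 5.33 and 5.94 in the SCC and CIS libraries. Cebpd ran from 3.0 to 5.92 in normal tissue and lay above the highest normal library in 10 of 13 high-grade libraries, with 7.61 and 7.50 in the carcinomas. In A/J alone all 5 high-grade libraries had more Cebpd than the 3 normal ones, as did 2.53% of all genes. Cebpd is listed as a pseudogene in the mouse annotation that matches the counts, and its counts are given as deposited.

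The rank of grade (0 for normal to 4 for CIS/SCC) gave adjusted p-values under the threshold of 0.05 to 41 of 15630 genes (0.262%). The genes described here were chosen with their levels by grade known, so their slopes are given without a call. Slopes per step were 0.70 ± 0.11 for Socs3, 0.66 ± 0.10 for Nfil3, 0.55 ± 0.08 for Slc39a14 and 0.51 ± 0.10 for Bcl3. Those of Stat3, Osmr and Cebpd were 0.22 ± 0.05, 0.38 ± 0.10 and 0.61 ± 0.14. Lif had a slope of 0.87 ± 0.30 and Il6ra one of −0.11 ± 0.17. Without the SCC and CIS libraries, a setting added after seeing the data, the slopes of Socs3, Nfil3, Slc39a14 and Bcl3 were 0.56, 0.50, 0.48 and 0.46, and edgeR called 0 of the 15630 genes (859 at an unadjusted p under 0.05).

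Median marker levels of other cell types differed between normal and high-grade in the same libraries, without adjustment for sample type, strain or median TIN. The summed level of neutrophil markers had a median of 5.30 in normal and 8.17 in high-grade libraries, with 13.91 in the SWR/J LCM severe dysplasia library. Macrophage markers had medians of 6.15 and 7.45, airway basal markers 8.06 and 10.77, and T cell markers 9.96 and 5.80. None of the 5 macrophage, 4 tested neutrophil, 5 basal or 5 T cell markers was called for high-grade against normal. With the T cell marker level as a covariate, added after seeing the data, the slope of Socs3 was 0.54 and that of Cebpd 0.35 against 0.61. With the macrophage marker level it was 0.48 for Socs3, and with the neutrophil marker level 0.58. The slopes of Nfil3 were 0.64, 0.62 and 0.67 under the 3 covariates, against 0.66. edgeR called 0 genes for the rank with the T cell or macrophage covariate (1600 and 1316 at an unadjusted p under 0.05) and 8 with the neutrophil covariate.

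**Figure D2:**
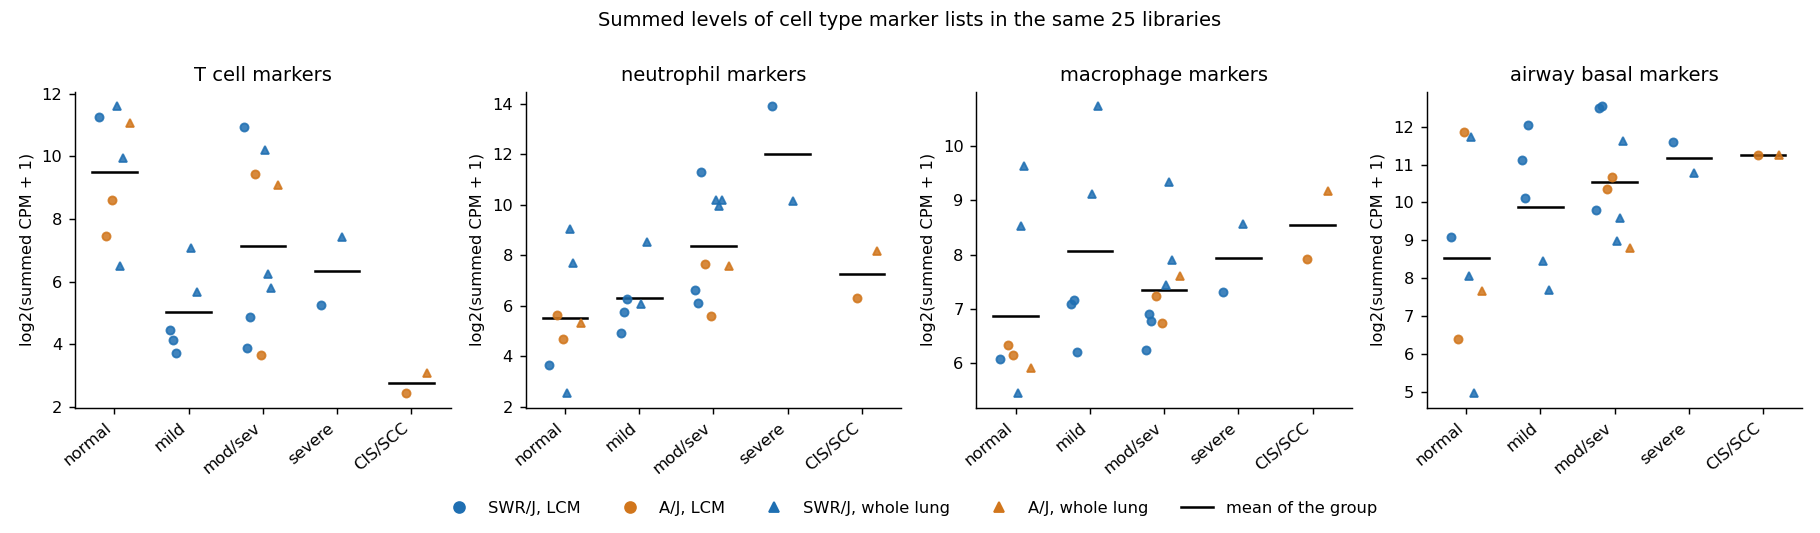
Summed level of 4 marker lists (vertical axis, log2 of summed CPM + 1) in the same 25 libraries by grade (horizontal axis), with symbols as for the genes: circles LCM, triangles whole lung, blue SWR/J, orange A/J, bars group means. T cell markers are high in the normal libraries (6.49 to 11.60) and lowest in the SCC and CIS libraries (2.44 and 3.09), and neutrophil markers are highest in severe dysplasia.

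LCM and whole lung libraries did not differ past the threshold for any of the 9 genes. By edgeR's quasi-likelihood test with grade, strain and median TIN in the model, 14.6% of the 15630 genes differed between the sample types (883 higher and 1396 lower in LCM), and 0 of the 9 did, with 2 of 9, Stat3 and Il6ra, at an unadjusted p under 0.05 (30.3% of all genes). Stat3 came nearest, with a log2 fold change of −0.37 ± 0.13 (SE, 95% interval −0.65 to −0.09, adjusted p = 0.0623). Its 13 LCM libraries had 6.33, 6.65 and 7.71 as lowest, median and highest and its 12 whole lung libraries 6.47, 6.96 and 7.68, so the groups overlapped over most of their range. Stat3 was under the threshold when the SCC library (adjusted p = 0.0423) or the A/J whole lung moderate to severe library (replicate 14, adjusted p = 0.0472) was left out, and with the T cell covariate (adjusted p = 0.0152).

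Il6ra had the largest sample type difference of the 9, −1.11 ± 0.44 (−2.02 to −0.19, adjusted p = 0.0922). LCM libraries ran from 0.10 to 3.30 and whole lung libraries from 0.83 to 5.32. DESeq2 called it lower in LCM (−1.08, adjusted p = 0.0367). With the macrophage marker level as a covariate the difference was −0.04. Of the 5 macrophage markers 2 were themselves lower in LCM, Marco (−4.52 ± 0.89, adjusted p = 0.00344) and Chil3 (−3.16 ± 0.82, adjusted p = 0.0144).

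The other genes were nearer to 0 or had wide intervals. Osmr (−0.01, −0.44 to 0.43), Slc39a14 (0.02, −0.48 to 0.52) and Cebpd (0.04, −0.67 to 0.76) had estimates near 0, with intervals that leave differences up to those bounds undetected. Socs3 was at −0.66 ± 0.36 (adjusted p = 0.225), Bcl3 at −0.35 ± 0.30, Nfil3 at 0.25 ± 0.31 and Lif at 0.16 ± 0.43. Socs3 passed the threshold with the T cell covariate (−0.91, adjusted p = 0.0436) and turned to 0.31 with the macrophage covariate. Cebpd was at 1.04 (adjusted p = 0.0497) with the macrophage covariate.

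**Figure D3:**
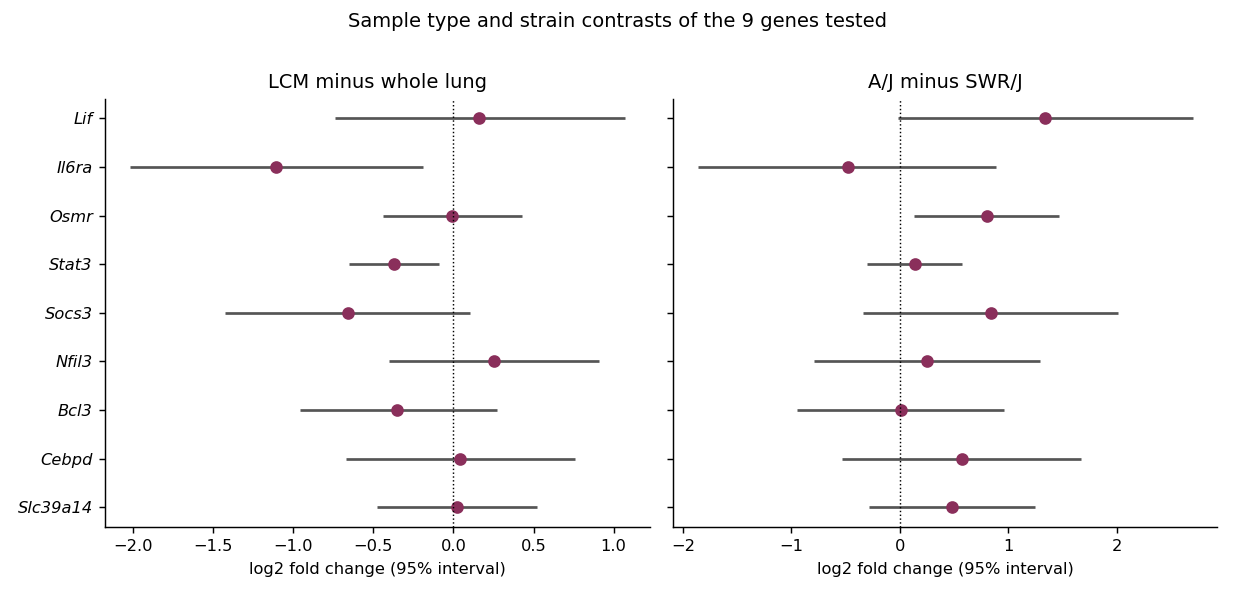
Log2 fold change with its 95% interval (horizontal axis) for the 9 genes tested (vertical axis), LCM minus whole lung on the left and A/J minus SWR/J on the right. The intervals of Stat3 and Il6ra on the left and of Osmr on the right leave out 0, and none of the 9 genes passed the adjusted threshold in either contrast.

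The strains did not differ past the threshold for these genes either. Between A/J (8 libraries) and SWR/J (17), 0.992% of the 15630 genes differed and 0 of the 9 did by edgeR or DESeq2, with 1 of 9, Osmr, at an unadjusted p under 0.05 (17.5% of all genes). Lif was 1.34 ± 0.65 higher in A/J on the log2 scale (−0.02 to 2.70, adjusted p = 0.288), with 0.53, 3.07 and 5.28 as lowest, median and highest in A/J and −2.22, 1.95 and 4.30 in SWR/J. Osmr was 0.80 ± 0.32 higher (0.13 to 1.47, adjusted p = 0.206), with a median of 5.77 in A/J and 5.22 in SWR/J. Both were under the threshold once median TIN, which was higher in A/J, was left out of the model, Lif with 1.89 (adjusted p = 0.0127) and Osmr with 0.76 (adjusted p = 0.0269). That setting called 2493 of the 15630 genes, against 155 with median TIN in the model.

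The remaining genes gave Socs3 0.84 ± 0.56, Cebpd 0.57 ± 0.52, Slc39a14 0.48 ± 0.37, Nfil3 0.25 ± 0.50, Stat3 0.14 ± 0.21, Bcl3 0.01 ± 0.46 and Il6ra −0.48 ± 0.66, with adjusted p from 0.439 to 0.996. The SCC and CIS libraries were both A/J. Where both strains had libraries, in normal tissue and moderate to severe dysplasia, the estimates of Socs3 (−0.27), Nfil3 (−0.70), Slc39a14 (−0.25), Stat3 (−0.16) and Bcl3 (−0.68) took the opposite sign.

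Whether the high-grade difference itself depended on sample type or strain was tested with interaction terms. No gene of the 15630 was called by edgeR (0.0%) in either test, with 1166 genes at an unadjusted p under 0.05 for sample type and 678 for strain. DESeq2 called 0 for sample type and 3 for strain. The difference of Stat3 between normal and high-grade was 0.42 ± 0.31 lower in LCM than in whole lung on the log2 scale (−1.06 to 0.23, adjusted p = 0.763), and that of Lif 1.80 ± 0.98 lower (−3.86 to 0.26, adjusted p = 0.699). By strain, Nfil3 had the largest term, 1.05 ± 0.75 greater in A/J (−0.53 to 2.63, adjusted p = 0.970). All 18 terms had intervals that include 0.

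In the mouse genome build NCBIM37 (mm9), Socs3 lies at chr11:117827393-117831361 on the minus strand, Nfil3 at chr13:53062578-53076442 on the minus strand, Stat3 at chr11:100746412-100800854 on the minus strand and Il6 at chr5:30339701-30346508 on the plus strand. All are whole gene spans, and reads were counted over their exons. Levels can be compared between genes only per length. Per kilobase of exon, Cebpd had the highest median over the 25 libraries (49.9 CPM per kb), followed by Stat3 (11.1), Socs3 (10.6), Osmr (8.44), Bcl3 (6.82), Nfil3 (4.02), Slc39a14 (1.77), Lif (1.62), Il6ra (1.31) and Il6 (0.155). The ranges of all neighbors in this order overlapped. Stat3 exceeded Socs3 in 12 of 25 libraries and Lif exceeded Il6ra in 13, so the order of these pairs was not settled, whereas Nfil3 exceeded Slc39a14 in 24 and Cebpd exceeded Stat3 in 23. Socs3 spanned 3.33 to 80.4 CPM per kb and Stat3 8.40 to 22.0. The protocol did not mark strand: Stat3 overlaps Stat5a, and Bcl3 the transcripts Gm16174 and Gm16175, each on the opposite strand.

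Over the 25 libraries the 8 genes other than Il6ra tended to be high in the same libraries. Pearson's r of log2 CPM for their 28 pairs ran from 0.289 to 0.839 with a median of 0.694. After grade class (normal, mild, high-grade), strain, sample type and median TIN were removed the median was 0.586. The high-grade class pools the carcinomas with dysplasia, so grade differences within it remain in that value. The 8 pairs with Il6ra had r from −0.085 to 0.392. These are descriptions, since all pairs share the libraries and the 2 carcinoma libraries lie far from the rest.

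**Figure D4:**
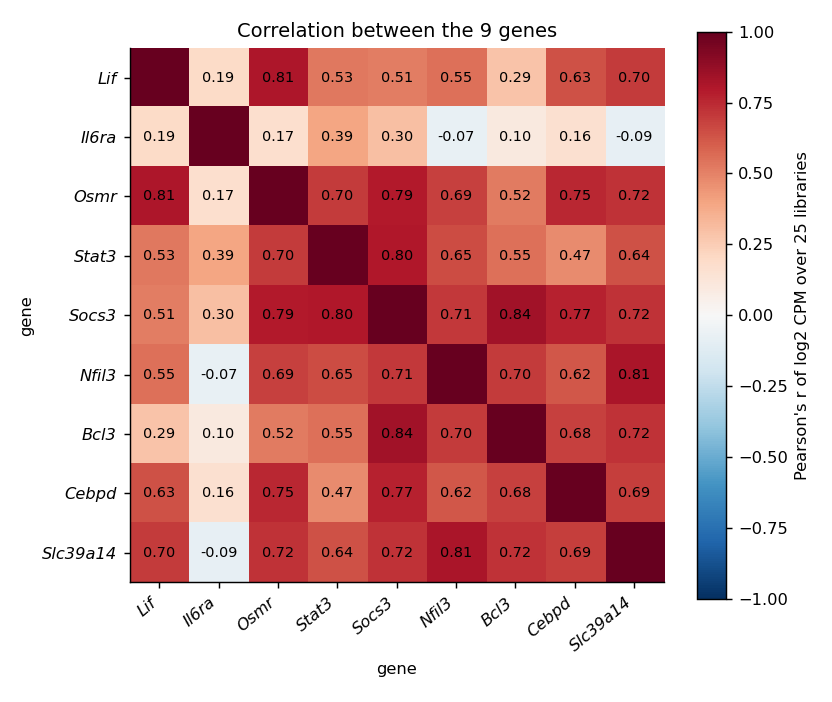
Pearson's r of log2 CPM between the 9 genes tested over 25 libraries (color and number in each cell, gene names on both axes). Values among the 8 genes other than Il6ra are between 0.289 and 0.839, and the row of Il6ra is between −0.085 and 0.392.

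Of 14209 genes whose mean level reached 1 log2 CPM, the 10 whose level followed that of Socs3 most closely over the 25 libraries were Lgmn (r = 0.882), Plaur (0.861), Rhbdf2 (0.859), B4galt1 (0.846), Myd88 (0.843), Gp49a (0.840), Bcl3 (0.839), Lilrb4 (0.839), Nus1 (0.832) and Nek6 (0.823). Lgmn encodes a lysosomal protease, Plaur the urokinase receptor and Myd88 an adaptor of Toll-like and IL-1 receptors, and Gp49a and Lilrb4 are near-identical paralogs whose reads RSEM may divide between them. Stat3 was at rank 15, Osmr at 20, Cebpd at 32, Slc39a14 at 67, Nfil3 at 83, Lif at 865 and Il6ra at 2780. The same ranking was made on residuals after grade class (normal, mild, high-grade), strain, sample type and median TIN, which keep grade differences within high-grade. There 4 of the 10 genes recurred, with Myd88 at the top (r = 0.873).

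The rest of the pathway was read from gene lists. Among 6 tested cytokines of the family other than Il6 and Lif, none passed the threshold in any comparison. Osm, whose product binds the chain encoded by Osmr, had a slope of 0.39 ± 0.20 per step of grade (adjusted p = 0.387). Of 5 other receptor chains, Il6st, the shared chain gp130, was lower in LCM (−0.46 ± 0.13, adjusted p = 0.0201), and its level in the SCC and CIS libraries (6.66 to 6.72) lay inside the normal range of 6.22 to 7.18. None of the 5 was called for grade or strain.

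For high-grade against normal 0.0192% of the 15630 genes were called, and none of the pathway lists described here held one of them. Among the kinases and other STATs, Stat4 (−2.31 ± 0.63, adjusted p = 0.0274) and Stat5b (−1.65 ± 0.53, adjusted p = 0.0451) fell in mild dysplasia against normal. The background for mild dysplasia was 12.4% of the 15630 genes. Stat4 acts downstream of IL-12 in lymphocytes. Jak3, a lymphoid kinase, was lower in LCM (−1.16 ± 0.32, adjusted p = 0.0199). The part of the T cell marker difference in these values was not tested.

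Of 13 other inhibitors, 2 rose and 1 fell in mild dysplasia, beside 12.4% of all genes in either direction: Socs5 (0.90 ± 0.23, adjusted p = 0.0226), Socs2 (1.77 ± 0.52, adjusted p = 0.0324) and Socs1 (−3.99 ± 0.97, adjusted p = 0.0215). Socs1 restrains interferon and common-gamma-chain signals in T cells. Its level ran from 2.55 to 6.63 in normal libraries, from 1.46 to 2.43 in mild dysplasia and from 0.77 to 1.62 in the carcinomas. Socs3 was at 7.62 and 7.86 in the same carcinoma libraries. Of the 13, 3 were lower in LCM, Ptpn1, Socs7 and Ptpn11 (−0.64, −0.61 and −0.39), beside 14.6% of all genes in either direction.

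Of 30 tested STAT3 and acute phase targets, 23 had a positive slope with grade (45.0% of all genes did). For the rank of grade 2 were called, beside 0.262% of all genes. They were Timp1 (1.13 ± 0.21 per step, adjusted p = 0.0221), an inhibitor of metalloproteinases, and Lcn2 (1.30 ± 0.25, adjusted p = 0.0270), an iron-sequestering acute phase protein. Without both CIS/SCC libraries, a setting added after seeing the data, edgeR called 0 of all genes for the rank. The median slope of the list was 0.27, against −0.02 over all genes. In other lists, 3 of 6 tested cytokines, 0 of 5 receptor chains and 1 of 10 kinases and other STATs had a positive slope. So did 9 of 13 inhibitors and 5 of 10 tested cytokines and receptors of other families. Median slopes were −0.11 for the receptor chains and −0.17 for the kinases and other STATs. Timp1 was between 1.32 and 3.85 in normal libraries and at 7.33 and 7.44 in the carcinomas. Lcn2 was between 1.95 and 7.74 in normal libraries and at 9.60 and 11.97 in the carcinomas, the higher value in LCM. In mild dysplasia 4 of the 30 were called, beside 12.4% of all genes: Lbp (2.17 ± 0.46), which binds bacterial lipopolysaccharide, Lrg1 (1.88 ± 0.50) and Ccnd1 (1.88 ± 0.57) rose and Birc5 (−3.16 ± 0.82), a gene of dividing cells, fell. These lists were drawn up with earlier results of the same libraries known.

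The same targets differed by sample type in both directions: 3 of 30 were higher in LCM and 5 lower, beside 14.6% of all genes in either direction. Lbp (1.77 ± 0.29), Cd14 (1.89 ± 0.35) and Reg3g (4.53 ± 0.83) were higher, and Lrg1 (−1.65 ± 0.34), Cebpb (−0.72 ± 0.20) and Vegfa (−1.18 ± 0.35) lower. Reg3g had a median of 10.03 in LCM and 5.28 in whole lung. Among 10 tested cytokines and receptors of other families that signal through STAT3, 3 were lower in LCM, Il10ra (−1.09 ± 0.25), Il17ra (−1.26 ± 0.30) and Il22ra2 (−3.34 ± 0.89). In mild dysplasia 3 were lower, Il10ra (−1.28 ± 0.39), Il17ra (−1.48 ± 0.48) and Il21r (−4.75 ± 1.29), beside the same 12.4%. Il10ra, the chain that binds IL-10, was also the 1 gene of the list lower in A/J (−1.64 ± 0.37, adjusted p = 0.0284). Csf3, the granulocyte colony-stimulating factor, had the steepest slope with grade of this list (1.48 ± 0.34, adjusted p = 0.0553), at −2.22 to 0.04 in normal libraries and 3.89 and 4.42 in the carcinomas.

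The 15 libraries that had failed quality control gave a separate look at grade. They were shallow, with 17051 to 1965373 expected counts (median 287310), and comprised 3 normal, 2 mild and 10 high-grade libraries. All 3 normal and 7 of the 10 high-grade ones were LCM. All 3 normal and 8 of the 10 high-grade ones were SWR/J, and the other 2 were A/J. Strain was in neither the fit nor the exact test, so it is mixed into the grade difference. Over 14732 genes edgeR called 0.0679% for high-grade against normal, 10 genes that were all lower, and 0 of the 9 genes tested. Log2 CPM were higher on average in high-grade for 6 of the 10 genes. The share of all genes was not counted, so nothing is read from that count.

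Nfil3 went the other way in these libraries. The 3 normal libraries had 4.93, 4.94 and 5.37 log2 CPM, on 1, 30 and 6 counts, and the 10 high-grade libraries ran from 1.92, the value of a library without a read, to 4.78, on 0 to 16 counts. Every normal library was above every high-grade one, a difference in means of −1.67 (high-grade 3.41, normal 5.08). The share of all genes with such a separation in these shallow libraries was not counted. An exact permutation test (two-sided) gave p = 0.00699, the smallest that the 286 splits of 10 against 3 allow, and 10 genes were tested in this way. Among LCM libraries alone, added after seeing the data, the difference was −1.69 (exact p = 0.0167). edgeR across all genes gave −1.56 ± 0.93 (adjusted p = 0.679), so the difference was not called there. In the libraries that passed quality control, Nfil3 was higher in high-grade than in normal by 1.55 ± 0.42.

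The other 9 genes did not differ beyond the spread of these libraries, with exact p from 0.196 to 1. Socs3 was at 4.25, 5.14 and 6.79 in the normal libraries, the highest on 4 counts, and from 1.92 to 6.92 in the high-grade ones. The SWR/J LCM severe dysplasia library (replicate 1) had 78 Socs3 counts and 15 Il6 counts among 858375, and Il6 had no count in the other 14 libraries. The CIS and SCC libraries of this set, both A/J, had 5.90 and 5.94 for Socs3. For Lif, 22 counts were found over the 10 high-grade libraries and 0 over the 3 normal ones, which held 6890693 and 1805094 counts in all.

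**Figure D5:**
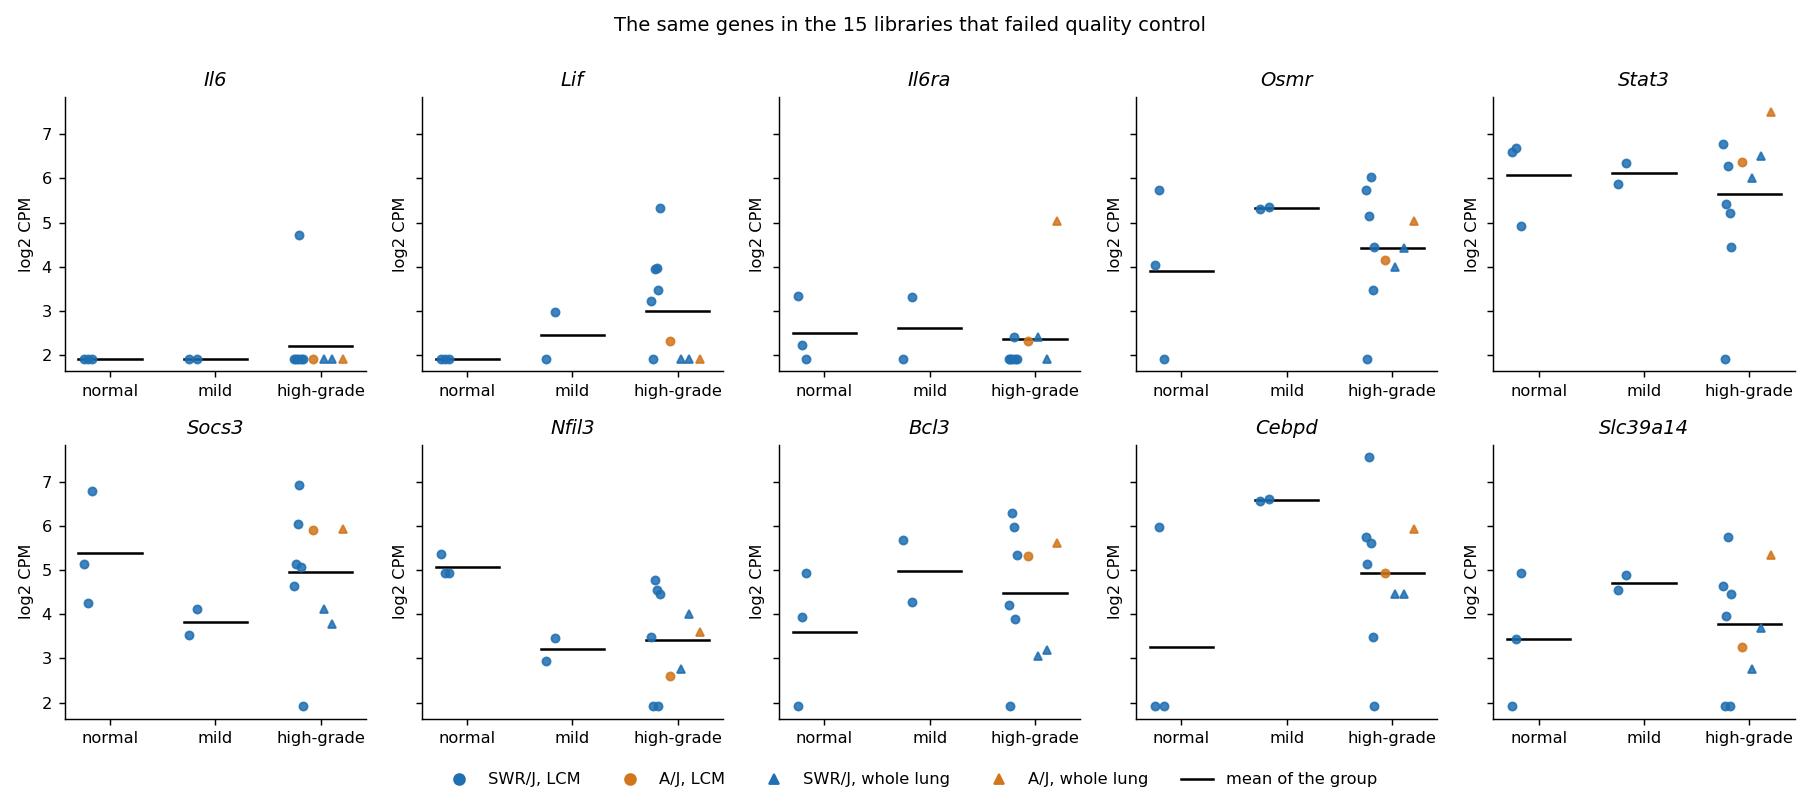
Log2 CPM (vertical axis) of the 10 genes in the 15 libraries that failed quality control, in normal, mild and high-grade histology (horizontal axis). Circles are LCM, triangles whole lung, blue SWR/J, orange A/J and bars group means, and 1.92 is the value of a library without a read. In the Nfil3 panel the 3 normal libraries (4.93 to 5.37) lie above all 10 high-grade libraries, and the share of all genes that do so was not counted.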

How the data were processed

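RNA was sequenced from LCM and whole lung tissue with a library kit that does not mark strand. The authors trimmed reads with Trimmomatic, aligned them with STAR to the mouse genome (mm9) and deposited the expected counts per gene that RSEM estimated, as 1 table of 40 libraries, and the labels gave each library's median TIN and whether it passed quality control. Of the values, 88.8% were whole numbers. Counts were rounded and fitted in edgeR 4.0.16 (R 4.3.3) by the robust quasi-likelihood test with TMM normalization and Benjamini-Hochberg adjustment at 0.05. The design held histological grade (normal, mild, high-grade), strain, sample type and median TIN, or the rank of grade from 0 to 4 in place of the classes, or an interaction term. Genes were kept with an interquartile range above 0 and a sum above 1 of log2 CPM (prior count 2). The SE is the log2 fold change divided by the square root of the F statistic, and 95% intervals use 19 degrees of freedom. The 15 libraries that failed quality control were fitted apart, with grade and sample type, for genes with at least 10 counts in all, and tested by exact permutation in scipy 1.17.1. DESeq2 1.42.0, RLE normalization, other filters, subsets of libraries and single libraries left out were alternatives, and covariates of marker levels were added after seeing the data. The functions were tested on simulated data.

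The 10 genes, the 24 gene lists and the tests were chosen with earlier results of these data known. Genes named are the 10 genes, up to 3 called genes with the smallest adjusted p in each direction per list and comparison, or the 2 with the largest change where none was called, and the 10 genes with the highest Pearson r with Socs3. A single gene that this rule names is left out and not reported here.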

Additional observations from a re-analysis of the deposited data

Results flagged for a closer look

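Bcl3 in the normal libraries had 1 library apart from the rest: SWR/J whole lung replicate 8 at 4.80 log2 CPM, against 3.26 to 3.78 in the other 6. The same library had the highest Il6ra and B cell marker levels of the normal group.

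Cebpd in moderate to severe dysplasia had 1 low library, SWR/J LCM replicate 4 at 4.31 log2 CPM, against 5.63 to 6.77 in the other 8. That library had a T cell marker level of 10.92, the highest of the high-grade libraries, and a link with Cebpd was not tested. Of 30 groups examined by the gap of their most extreme library, the Bcl3 and Cebpd groups passed the 95% limit, and chance flags about 1 in 20.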

How the results depend on the processing

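The number of genes called depended on the settings. For sample type it was 2279, and 1298 without the libraries with conflicting labels, 577 in SWR/J alone, and 1365 and 1468 with the neutrophil and macrophage covariates. For strain it was 155, and 955 with DESeq2, 254 with no filter, 2493 without median TIN, 11 in LCM alone, 14 in whole lung alone, 405 with the macrophage covariate and 336 in normal and moderate to severe dysplasia alone. For the rank of grade it was 41, and 545 with DESeq2, 63 with no filter, 182 without median TIN, 8 with the neutrophil covariate and 0 in SWR/J, LCM or whole lung alone, with the T cell or macrophage covariate, or without both CIS/SCC libraries. For high-grade against normal it was 3, and 99 with DESeq2, 1 with no filter, 5 without median TIN and 0 in SWR/J, LCM or whole lung alone, with each covariate and without both CIS/SCC libraries. For mild dysplasia it was 1945, and 3624 with DESeq2, 928 without the 2 libraries that depart by the study's sample filter, 997 without conflicting labels, 0 in LCM or whole lung alone, and 162 and 480 with the T cell and macrophage covariates. The strain interaction had 0 with edgeR and 3 with DESeq2. The failed libraries had 10, and 42 with DESeq2 and 93 without sample type. The cause was not tested. Leaving out 1 library gave 1385 to 2555 genes for sample type, 97 to 402 for strain, 1 (without the SCC library) to 153 for the rank, 0 to 6 for high-grade, 643 to 3118 for mild dysplasia and 0 to 17 in the failed libraries.

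None of the values that changed sign among the 10 genes was called, and many but not all were near 0. By strain, Il6ra was at 2.05 ± 0.79 in LCM alone (edgeR adjusted p = 0.445). Nfil3 was at −0.70 ± 0.33 by strain in normal and moderate to severe dysplasia alone (edgeR adjusted p = 0.235). For LCM against whole lung, Socs3 was at 0.31 and Bcl3 at 0.28 with the macrophage covariate, Slc39a14 at −0.10 without the 2 departing libraries, −0.0036 without conflicting labels and −0.11 with the T cell covariate, Lif at −0.03 with the T cell covariate, and Cebpd at −0.02 without conflicting labels, −0.09 in SWR/J alone and −0.29 with the T cell covariate. Osmr was at 0.02 with DESeq2 and with RLE, 0.03 without conflicting labels, 0.11 and 0.41 with the neutrophil and macrophage covariates and 0.04 without both CIS/SCC libraries. For strain, in normal and moderate to severe dysplasia alone, Socs3 was at −0.27, Nfil3 −0.70, Slc39a14 −0.25, Stat3 −0.16 and Bcl3 −0.68. With the T cell covariate Nfil3 was at −0.38, Stat3 −0.06 and Bcl3 −0.35, and without both CIS/SCC libraries −0.39, −0.01 and −0.39. Bcl3 was also at −0.03 with DESeq2 and RLE, −0.00014 without median TIN, −0.04 without conflicting labels and −0.30 in whole lung alone. Il6ra was at 0.98 without median TIN, 0.42 without the departing libraries, 2.05 in LCM alone and 0.07 with the macrophage covariate. Without the departing libraries the sample type interaction was −0.59 for Socs3, −0.99 for Il6ra, −0.58 for Bcl3 and −0.73 for Cebpd, and the strain interaction 0.02 for Stat3, −0.36 for Il6ra and −0.67 for Cebpd. In the failed libraries Socs3 was at −0.20 with DESeq2, and without sample type Osmr was at −0.11 and Il6ra at 0.34.

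Leaving out 1 library turned the sign of 51 of 1200 values. The ranges were −0.33 to 0.34 for Bcl3, −0.80 to 0.44 for Il6ra and −0.27 to 0.49 for Nfil3 by strain, and −0.05 to 0.24 for Cebpd, −0.08 to 0.10 for Osmr and −0.07 to 0.24 for Slc39a14 by sample type. For grade, Il6ra ranged from −0.75 to 0.01 in high-grade (0.01 without the normal SWR/J whole lung replicate 8) and from −0.26 to 1.37 in mild dysplasia, and Nfil3 from −0.09 to 0.46 in mild dysplasia. In the failed libraries the fitted ranges were −0.32 to 1.25 for Socs3 and −0.24 to 1.64 for Osmr, and the differences in means −1.01 to 0.26 for Socs3, −0.42 to 1.09 for Slc39a14, −0.45 to 1.46 for Osmr and −0.41 to 0.29 for Il6ra. No paired analysis was possible because the labels carry no replicate numbers, and the numbers used here only name libraries. Il6, with 0 counts in 9 of 25 libraries, is limited by depth.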

Other observations

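Among gene lists outside the pathway, 4 of 16 clock genes were called by edgeR in mild dysplasia against normal, where 12.4% of all genes were, with Per1 (1.15 ± 0.31), Per2 (1.56 ± 0.43) and Hlf (1.48 ± 0.47) higher and Arntl (−1.42 ± 0.43) lower. Of 14 tested immediate early genes 2 were called in the same comparison, both higher, Fos (2.04 ± 0.46) and Dusp1 (1.5 ± 0.38). Time of day at collection is not given in the sources used here.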
